A study of Mus musculus with 27 samples.

Results

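Chemokine ligand genes were followed in bulk RNA sequencing counts of mouse fibroblasts and lungs from a study of Foxm1, a cell cycle transcription factor of the forkhead family. Members were the rows of the count table whose symbol was Ccl, Cxcl, Cx3cl or Xcl followed by a number and at most 1 letter, which gave 39 of 24062 symbols. All groups were C57BL/6. Mouse embryonic fibroblasts, primary cells grown out of embryos, came from 2 numbered experiments and were of early passage, growing asynchronously and taken near 90% confluence. Experiment 1 held the labels WT, KO and KO-NTD, and experiment 2 the labels WT and Het, each with and without NTD. Lungs, labelled WT or Het, came from animals aged 10 days. Each of the 9 groups had 3 libraries. The labels explain neither NTD nor which allele of Foxm1 KO and Het stand for. Nor do they tell whether replicates were separate embryos, animals or cultures, and the p-values therefore rest on a spread between libraries that may be technical.

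Chemokines are small secreted proteins that guide the migration of cells carrying G protein-coupled receptors. The CXC ligands with a Glu-Leu-Arg motif (the ELR group) bind Cxcr2 and attract neutrophils, the Ccr2 ligands attract monocytes, and Cxcl9, Cxcl10 and Cxcl11 are interferon-inducible ligands of Cxcr3. Fibroblasts are a known source of Cxcl12, which retains cells that carry Cxcr4, and of ligands induced through NF-kB. Cx3cl1 and Cxcl16 are made as membrane-anchored proteins and can be shed.

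Promoter sequences are shown for 4 members whose levels moved in different directions in experiment 2, described further on. Cxcl1, Cxcl2 and Cxcl3 are ELR ligands that lie close together on chromosome 5, and Cxcl10 is the Cxcr3 ligand with most counts in the fibroblasts. Each line is the 250 bases before the RefSeq start (GRCm38.p6, the assembly of mm10), written 5′ to 3′ on the gene's strand. Capitals mark matches of the NF-kB consensus and, in Cxcl10, first a match of the interferon response core (GAAA, any 2 bases, GAAA), both searched on both strands with overlapping matches merged.
Cxcl1, chr5:90890995-90891244 (plus strand): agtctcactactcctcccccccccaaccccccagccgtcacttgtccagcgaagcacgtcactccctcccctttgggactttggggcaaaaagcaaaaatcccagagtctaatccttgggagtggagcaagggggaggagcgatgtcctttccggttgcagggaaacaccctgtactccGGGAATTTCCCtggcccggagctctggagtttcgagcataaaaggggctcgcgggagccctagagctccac
Cxcl2, chr5:90903649-90903898 (plus strand): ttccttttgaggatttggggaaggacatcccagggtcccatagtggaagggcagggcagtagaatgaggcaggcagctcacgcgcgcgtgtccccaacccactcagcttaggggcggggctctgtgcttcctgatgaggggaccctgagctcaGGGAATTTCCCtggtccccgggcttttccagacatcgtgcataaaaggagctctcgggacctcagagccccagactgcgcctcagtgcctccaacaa
Cxcl3, chr5:90785851-90786100 (plus strand): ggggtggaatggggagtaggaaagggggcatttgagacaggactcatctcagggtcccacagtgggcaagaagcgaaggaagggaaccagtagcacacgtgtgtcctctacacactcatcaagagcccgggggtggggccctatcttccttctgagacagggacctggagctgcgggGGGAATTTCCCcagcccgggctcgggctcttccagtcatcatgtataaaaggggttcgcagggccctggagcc
Cxcl10, chr5:92348890-92349139 (minus strand): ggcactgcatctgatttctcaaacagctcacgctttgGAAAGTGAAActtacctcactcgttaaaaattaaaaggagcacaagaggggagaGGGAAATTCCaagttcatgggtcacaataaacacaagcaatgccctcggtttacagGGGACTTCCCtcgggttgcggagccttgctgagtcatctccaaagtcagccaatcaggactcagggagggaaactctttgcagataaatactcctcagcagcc
The NF-kB match of Cxcl1 began 71 bases before the start, that of Cxcl2 97 and that of Cxcl3 73, and all 3 read GGGAATTTCCC. The Cxcl2 window ends at 90903898, inside the gene as given below from GENCODE (90903871 to 90905938). The distance for Cxcl2 therefore depends on the annotation. Cxcl10 had matches that began 159 and 103 bases before its start, and its interferon response core began at 213. Of the 27 members with an entry in the promoter table (33 entries), 6 had an NF-kB match, the others being Ccl9 and Ccl20. The NF-kB consensus was matched in 3.9% of 32851 promoter windows of this length and the interferon response core in 2.98%. Cxcl3 alone of the 4 had the letters TATAAA, found in 12.4% of windows. A match is a description of these letters, not a site. So the 3 ELR genes that share one 11-base stretch are set beside each other below, where 2 of them rose in Het against WT. The third, Cxcl2, fell there by a call that was lost in 5 of 6 fits that left out a library.

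Total counts were 29730693 to 69517834 per library (median 42708114). Levels are given as CPM, the count scaled to library size after TMM normalization within the fit of an experiment or tissue. As a check of the labels, Foxm1 stood at 139, 149 and 152 CPM in the libraries labelled KO and at 134, 140 and 136 CPM in WT of experiment 1. The KO label thus came with no lower count over the whole gene, and directions below are between groups as labelled. Foxm1 was higher with NTD in all 3 fibroblast backgrounds (log2 change 1.31, 1.42 and 1.24 on KO, Het and WT). Fibroblast markers (8 genes) summed to 25260 to 42500 CPM in the fibroblast libraries. Alveolar type 2 markers (6 genes) summed to 17720 to 27810 CPM in the lungs and to 10.1 to 18.7 CPM in the fibroblasts.

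Libraries of 1 group differed in a list of 16 macrophage genes, which bears on ligands that macrophages also make. In experiment 1 the list summed to 108, 62.7 and 82.9 CPM in WT 1, 2 and 3. The libraries labelled KO held 13.1, 421 and 289 CPM, and those labelled KO-NTD 39.1, 10.5 and 304 CPM. KO 1 and KO-NTD 2 thus stood apart from KO 2, KO 3 and KO-NTD 3. In experiment 2 the sums were 213, 191 and 234 CPM in WT and 82.6, 12.9 and 33.1 CPM in Het. They were 196, 79.5 and 106 CPM in WT-NTD, against 18.7, 13.5 and 19.9 CPM in Het-NTD. Every Het value lay below every WT value, and every Het-NTD value below every WT-NTD value. In bulk samples, fewer cells of a type and less RNA per cell cannot be told apart.

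Fibroblasts and lungs shared some abundant ligands, Cxcl12 among them, and differed in others. In the fibroblasts 9 members reached a mean of 5 CPM in a group: Cxcl12, Cxcl14, Cxcl5, Cxcl1, Ccl2, Ccl7, Ccl9, Cx3cl1 and Cxcl16. All members together summed to means of 649 (WT-NTD) to 873 CPM (KO) per fibroblast group, and Cxcl12 supplied 33.5% (KO) to 52.0% (Het-NTD) of that. Per length of exon the order differed: in WT of experiment 2, Ccl7 stood at 96.4 ± 11.7 CPM per kb (SD, n = 3) and Ccl2 at 85.7 ± 7.93 CPM per kb. That length joins the exons of all isoforms (8.176 kb for Cxcl12, 0.801 kb for Ccl7). The value of a gene with several isoforms may therefore be too low, and this order is uncertain. Cxcl14 stood at 60.4 ± 23.5, a spread too wide to set it apart from Ccl2. Cxcl5 at 38.0 ± 5.85 and Cxcl12 at 36.3 ± 5.81 CPM per kb could not be told apart by their spread, and Cx3cl1 stood below them at 15.2 ± 0.99. In lung the members summed to 1649 ± 195 CPM in WT and 1760 ± 91.4 in Het, and Cxcl15, a ligand made by lung epithelium, supplied 68.1 and 69.7%.

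**Figure D1:**
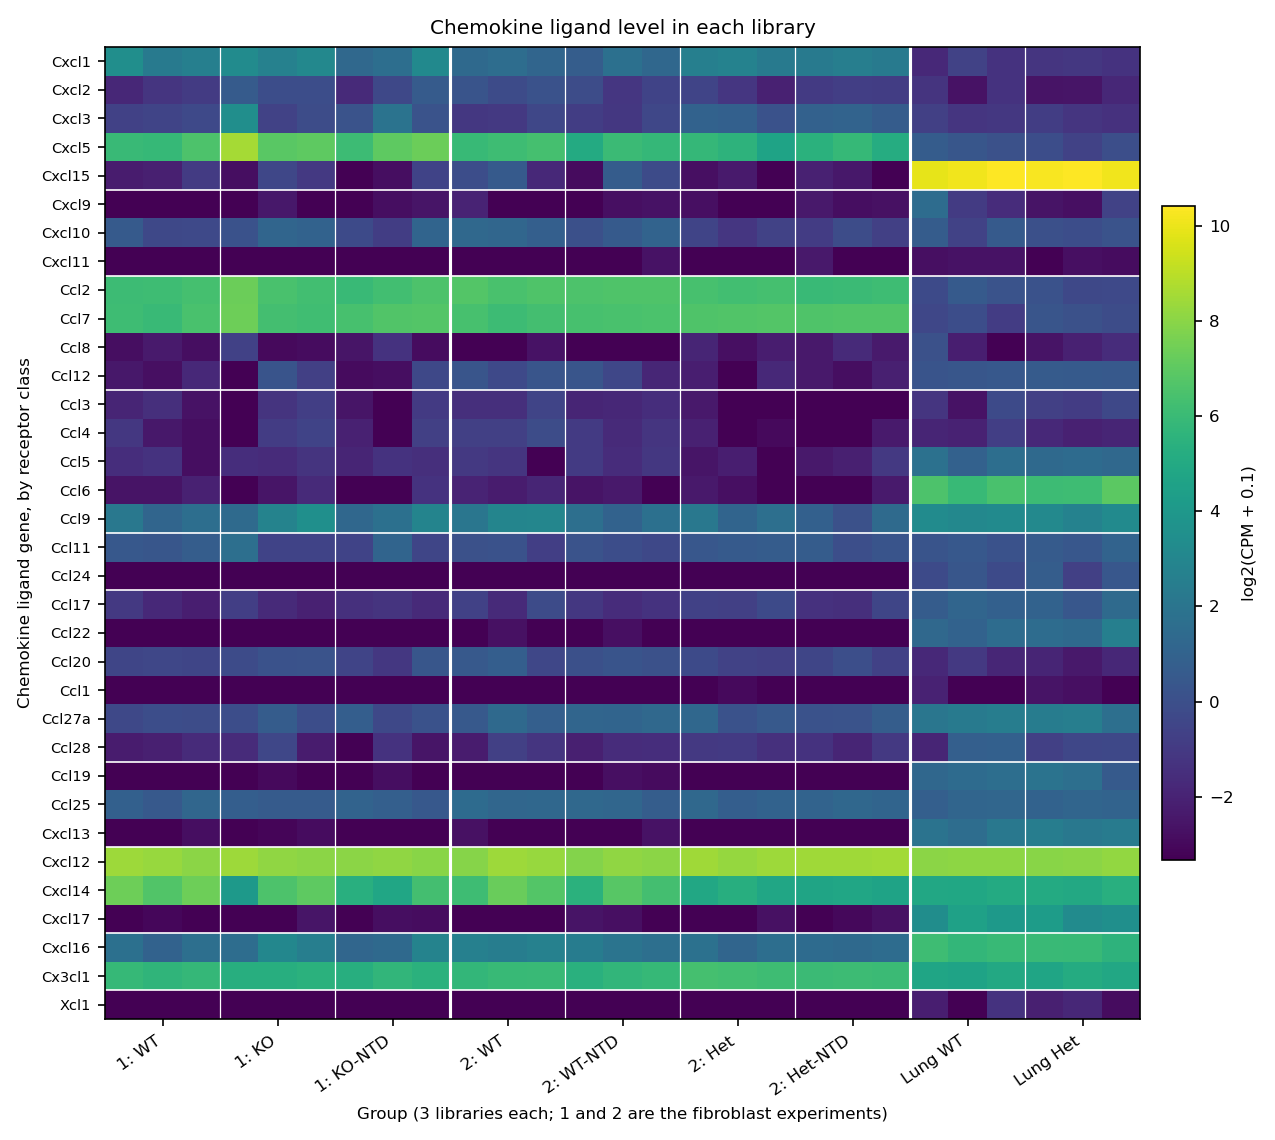
Each row is 1 of the 34 chemokine ligand genes with at least 1 count, ordered by receptor class, and each column is 1 library in 9 groups of 3; colour gives log2(CPM + 0.1). Cxcl12 is bright in all columns, Ccl2, Ccl7 and Cxcl5 only in the fibroblasts, and Cxcl15 and Ccl6 only in the lungs.

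No count was given to Ccl21a, Ccl21b, Ccl21c, Ccl26 or Ccl27b in any of the 27 libraries, which allows up to 0.00252 CPM (unscaled, 3 counts over all of them), for counting error only. The Ccl21 and Ccl27 genes are near-identical copies, so reads that fit several of them may have been dropped or split, and their zeros are uncertain. Ccl24 and Xcl1 were also at 0 in all 21 fibroblast libraries, which allows up to 0.00313 CPM. The filter on low counts left 23 members to test in each fibroblast experiment and 27 in lung. Exons of 5 members overlap another gene of the table on the opposite strand: Cxcl16 (552 bases with Zmynd15), Ccl25 (204, Elavl1), Cxcl10 (133, Art3), Xcl1 (98, Gm20743) and Ccl27a (8, Il11ra1). The strand setting of the counting is not given (TruSeq kit), so some reads of these members may come from the other gene.

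Het against WT in the fibroblasts of experiment 2 changed 12 of the 23 members tested (52.2%), where 16.5% of the 14314 genes tested passed. Of these, 4 rose (background for higher 7.89%) and 8 fell (background for lower 8.61%), by edgeR's quasi-likelihood test at an adjusted p below 0.05. DESeq2 called 4 higher and 10 lower, adding Ccl9 and Cxcl15 (20.2% of all genes). The members' median log2 change was -0.73, against 0.01 over all genes tested. CPM did not overlap between the groups for 5 members higher and 10 lower in Het (17.1% and 16.8% of all genes).

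The ELR group split. Cxcl1 (chromosome 5, 90891241 to 90893115), a neutrophil attractant, measured 2.47, 2.88 and 2.13 CPM in WT 1, 2 and 3 and 5.96, 6.65 and 5.04 CPM in Het 1, 2 and 3. The log2 rise was 1.24 ± 0.23 (SE, adjusted p = 0.00378), with every Het library above every WT library. Cxcl3 (90786103 to 90789600), its close relative, measured 0.368, 0.385 and 0.654 CPM in WT and 1.87, 1.73 and 1.002 CPM in Het, a rise of 1.71 ± 0.34 (adjusted p = 0.0056). Cxcl2 (90903871 to 90905938) went the other way, from 1.10, 0.796 and 0.995 CPM in WT to 0.592, 0.350 and 0.139 CPM in Het. Its fall of 1.39 on the log2 scale sat at the threshold (adjusted p = 0.04995) and was lost without the filter on low counts, with the 2 groups fitted alone and in 5 of 6 fits that left out a library. Cxcl5, the ELR member with most counts, was 70.8 ± 10.9 CPM in WT and 42.6 ± 16.5 CPM in Het, without overlap, and did not pass (log2 change -0.73, adjusted p = 0.186). Cxcl15 was at 0.801 ± 0.582 and 0.0491 ± 0.05 CPM (adjusted p = 0.0524).

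The Ccr2 ligands split as well, although Ccl2, Ccl7 and Ccl12 lie near each other on the plus strand of chromosome 11, with Ccl11 between Ccl7 and Ccl12. Ccl2 (82035571 to 82037453), also called MCP-1, measured 105, 87.4 and 100 CPM in WT and 84.4, 77.3 and 82.1 CPM in Het, with no overlap. It fell by 0.26 ± 0.06 on the log2 scale (adjusted p = 0.0162), and the call was lost with the 2 groups fitted alone (0.0617), without WT 3 (0.0528) and without Het 2 (0.0658). Ccl7 (82045712 to 82047525), or MCP-3, measured 86.4, 67.7 and 77.6 CPM in WT and 97.6, 104 and 107 CPM in Het, and rose by 0.41 ± 0.07 (adjusted p = 0.00291). The most abundant pair of Ccr2 ligands therefore moved in opposite directions, each by a small amount. Ccl12 (82101845 to 82103400), or MCP-5, was scarce: 1.13, 0.719 and 1.14 CPM in WT and 0.118, 0 and 0.195 CPM in Het. It fell by 3.24 ± 0.74 on the log2 scale (adjusted p = 0.0121). Ccl8 was under the filter, with at most 0.166 CPM in a Het library.

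Ccl3 and Ccl4, known products of activated macrophages, were low in WT and near 0 in Het. Ccl3 measured 0.263, 0.257 and 0.597 CPM in WT and 0.0947, 0 and 0 CPM in Het, a fall of 3.34 ± 0.88 on the log2 scale (adjusted p = 0.0274). Ccl4 measured 0.500, 0.514 and 0.825 CPM in WT and 0.142, 0 and 0.0278 CPM in Het, a fall of 3.31 ± 0.83 (adjusted p = 0.0181). Both calls were lost without WT 3, without Het 2 and without Het 3. The size of each fall rested on the few counts of Het 1: without that library the fitted changes were -6.84 for Ccl3, then at 0 in both Het libraries left and so no bound, and -5.22 for Ccl4. Ccl9, a ligand of Ccr1, was 6.49 ± 2.04 CPM in WT and 3.19 ± 1.21 in Het (log2 change -1.02, adjusted p = 0.0911), and Ccl5 did not pass (adjusted p = 0.2505).

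Cxcl10 (chromosome 5, 92346638 to 92348889), the interferon-inducible T cell attractant, measured 2.37, 2.21 and 1.68 CPM in WT and 0.615, 0.350 and 0.557 CPM in Het. It fell by 2.03 ± 0.35 on the log2 scale (adjusted p = 0.00271), the lowest adjusted p among the members, with no overlap. Cxcl9 and Cxcl11, the other Cxcr3 ligands, were under the filter, with at most 0.158 CPM in a WT or Het library. Cxcl14 (chromosome 13, 56288643 to 56296551), a constitutive CXC ligand, measured 69.5, 155 and 106 CPM in WT and 29.8, 38.2 and 27.6 CPM in Het. It fell by 1.79 ± 0.37 (adjusted p = 0.0126), and without Het 3 the adjusted p was 0.0538. Cxcl12, its homeostatic relative, measured 244, 337 and 309 CPM in WT and 347, 304 and 334 CPM in Het, which overlap, and did not pass (log2 change 0.15, adjusted p = 0.375).

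The membrane-anchored ligands also parted. Cx3cl1 (chromosome 8, 94772009 to 94782427), or fractalkine, measured 55.4, 61.3 and 62.8 CPM in WT and 82.1, 76.4 and 71.3 CPM in Het, and rose by 0.36 ± 0.10 (adjusted p = 0.0311). The call was lost in 5 of 6 fits that left out a library. Cxcl16 (chromosome 11, 70453983 to 70459984), the Cxcr6 ligand, measured 6.29, 5.65 and 6.57 CPM in WT and 3.41, 2.15 and 3.03 CPM in Het, and fell by 1.11 ± 0.21 (adjusted p = 0.00441). Of the members not named so far, Ccl11, Ccl17, Ccl20, Ccl25, Ccl27a and Ccl28 were tested and none passed (adjusted p from 0.076 to 0.887).

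**Figure D2:**
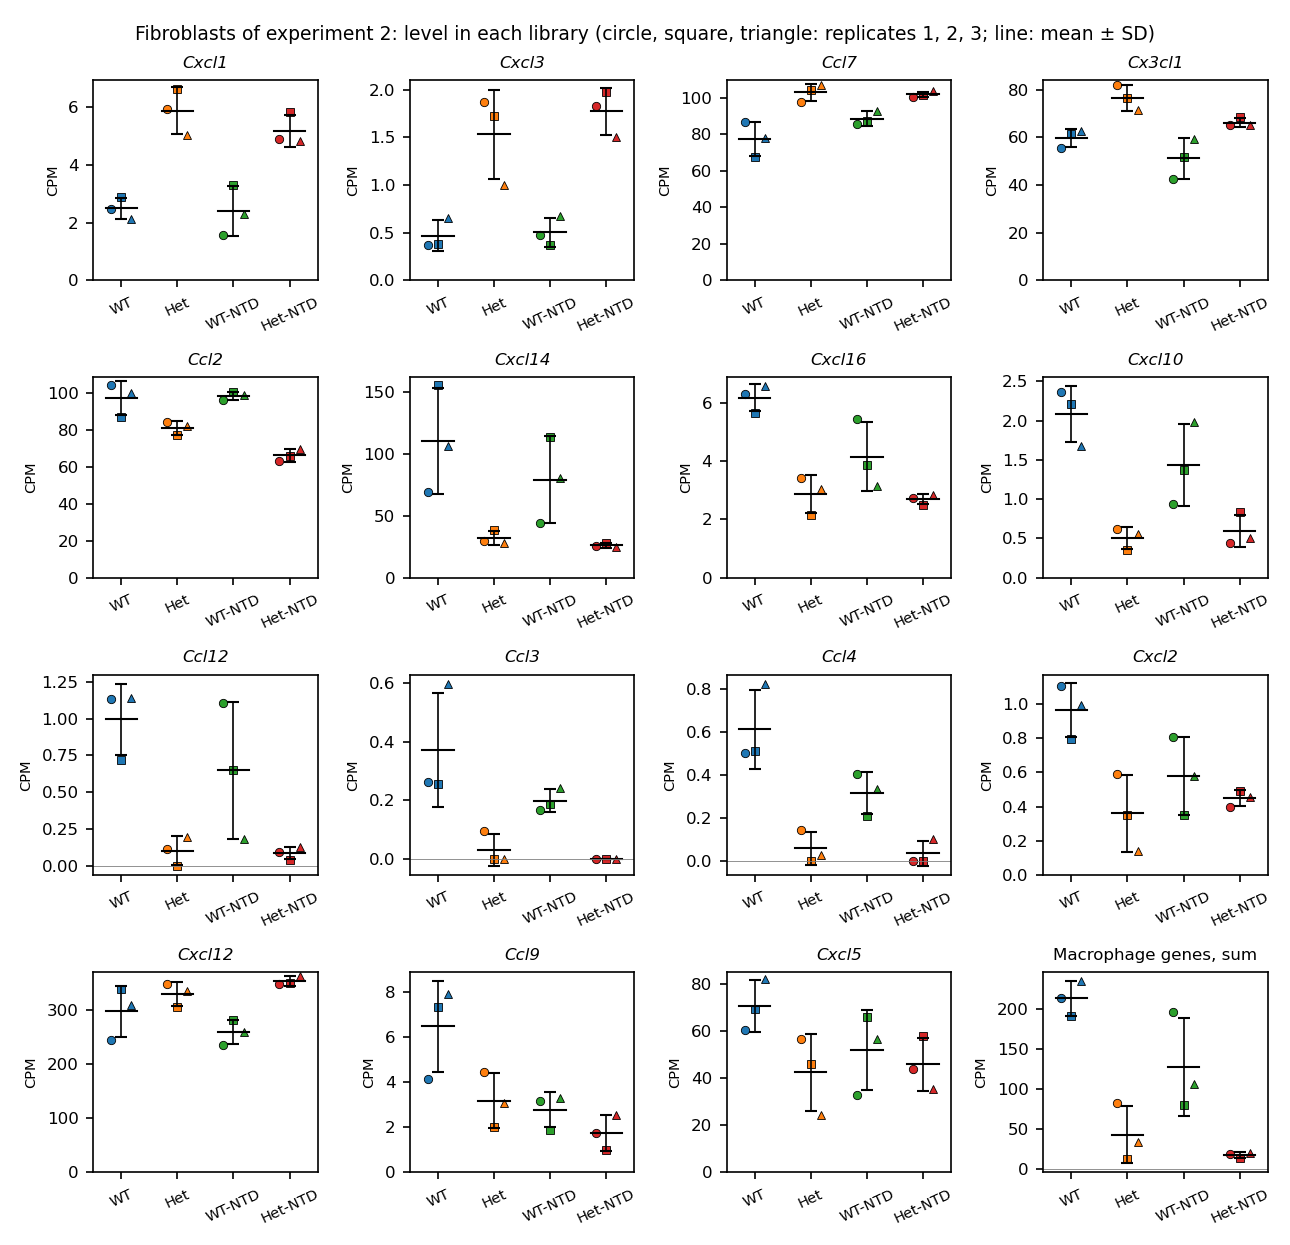
CPM of 15 ligands and of the summed macrophage genes in the 12 fibroblast libraries of experiment 2; symbols are replicates 1, 2 and 3, the line is the mean and the bar the SD. Cxcl1 and Cxcl3 lie higher in Het and Het-NTD than in WT and WT-NTD, while Cxcl14, Cxcl10, Ccl12, Ccl3 and Ccl4 lie lower.

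Het-NTD against WT-NTD is the same genotype contrast in 6 other libraries of experiment 2, and it was added after seeing the data. Both contrasts came from the same fit, and the labels do not tell whether libraries with and without NTD share a source. They may therefore not be independent. Het-NTD against WT-NTD changed 9 of the 23 members tested (39.1%, against 11.5% of all genes). Of these, 4 rose (background 5.24%) and 5 fell (background 6.24%). The members' median log2 change was -0.51, and it was the same with Ccl3 at its bound, against 0.00365 over all genes. DESeq2 called 4 higher and 8 lower, adding Ccl4, Cxcl15 and Cxcl16 (14.7% of all genes). CPM did not overlap for 5 members higher and 9 lower (16.3% and 15.8% of all genes).

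Cxcl3 measured 0.470, 0.373 and 0.670 CPM in WT-NTD, against 1.83, 1.98 and 1.503 CPM in Het-NTD, and rose by 1.82 ± 0.34 (edgeR adjusted p = 0.00469). Cxcl1 measured 1.58, 3.31 and 2.32 CPM in WT-NTD, against 4.91, 5.83 and 4.84 CPM in Het-NTD, and rose by 1.10 ± 0.23 (adjusted p = 0.00925). Both ELR genes were higher in every Het-NTD library than in any WT-NTD library. Cxcl2, which shares their promoter stretch, was 0.578 ± 0.228 CPM in WT-NTD, against 0.449 ± 0.046 in Het-NTD and did not pass (adjusted p = 0.702). Cxcl5 did not pass either, at 51.9 ± 17.0 and 45.9 ± 11.4 CPM (adjusted p = 0.796). Cx3cl1 measured 42.4, 51.7 and 59.3 CPM in WT-NTD, against 65.1, 68.4 and 65.0 CPM in Het-NTD, a rise of 0.37 ± 0.10 (adjusted p = 0.0353). Cxcl12 measured 236, 280 and 259 CPM in WT-NTD, against 347, 349 and 363 CPM in Het-NTD, a rise of 0.45 ± 0.10 (adjusted p = 0.0186).

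Ccl2 had the lowest adjusted p here: 96.2, 101 and 99.2 CPM in WT-NTD, against 63.1, 66.3 and 70.1 CPM in Het-NTD. It fell by 0.57 ± 0.06 on the log2 scale (adjusted p = 2.18e-04). Ccl7 stood at 85.3, 87.2 and 92.9 CPM in WT-NTD, against 100, 101 and 103 CPM in Het-NTD, without overlap, but did not pass (log2 change 0.20, adjusted p = 0.0951). Cxcl14 measured 44.0, 113 and 80.2 CPM in WT-NTD, against 25.5, 28.1 and 24.5 CPM in Het-NTD, a fall of 1.61 ± 0.37 (adjusted p = 0.0252). The WT-NTD libraries spread widely for this gene, and each still lay above every Het-NTD library. Cxcl10 measured 0.940, 1.38 and 1.98 CPM in WT-NTD, against 0.446, 0.830 and 0.509 CPM in Het-NTD, a fall of 1.26 ± 0.35 (adjusted p = 0.0354). Ccl12 measured 1.11, 0.653 and 0.183 CPM in WT-NTD, against 0.0939, 0.0426 and 0.127 CPM in Het-NTD, a fall of 2.86 ± 0.78 (adjusted p = 0.0335). Ccl3 had 21 counts over the WT-NTD libraries and none in Het-NTD, so it was at least 8.48-fold lower against a floor of 3 counts over the group (adjusted p = 0.0261). Cxcl16 (log2 change -0.62, adjusted p = 0.0795) and Ccl4 (-3.18, adjusted p = 0.0553) did not pass in edgeR and did in DESeq2 (0.0375 and 0.0173). Without Het-NTD 1, 3 members were called in place of 9, and 4 were called without Het-NTD 2, without Het-NTD 3 and without WT-NTD 2. Ccl2, Cxcl1 and Cxcl3 passed in all 6 such fits. The calls of Cxcl12, Cxcl14, Ccl3 and Ccl12 were each lost in 5 of the 6, and those of Cx3cl1 and Cxcl10 in 4.

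**Figure D3:**
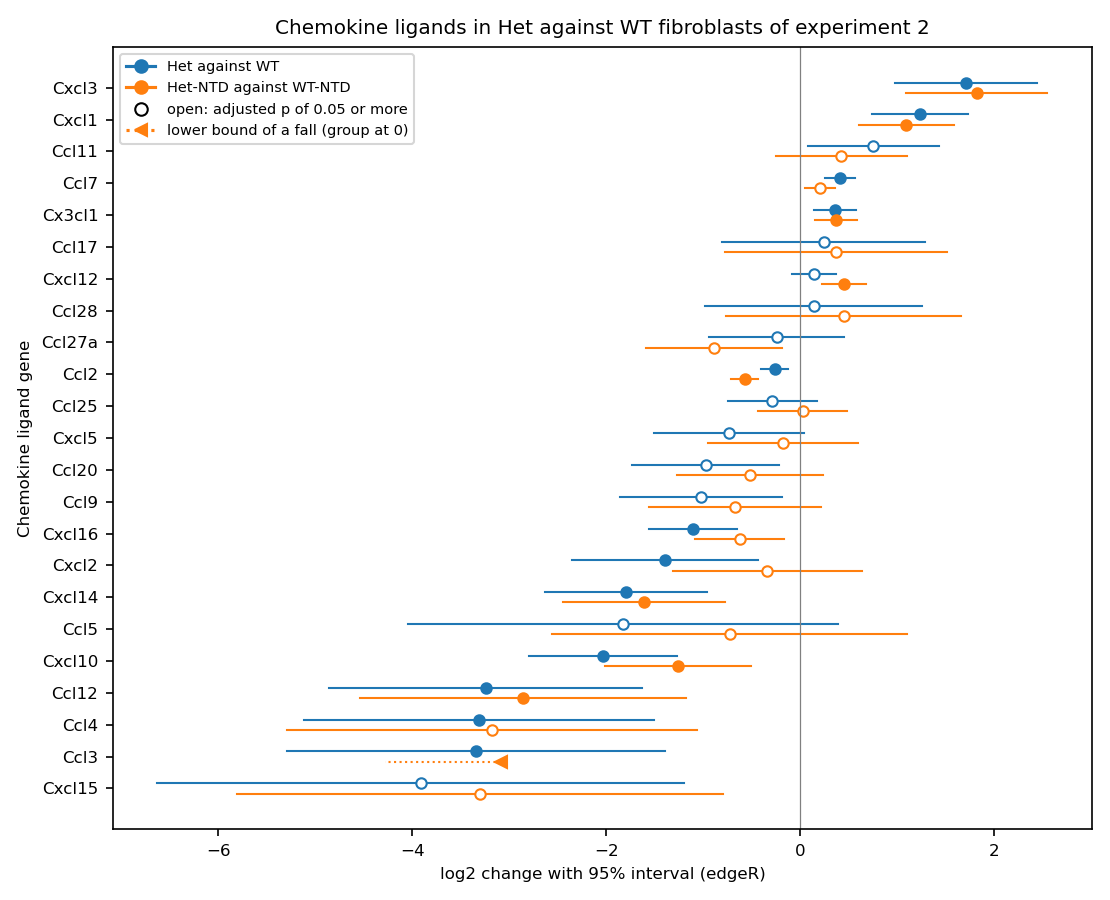
log2 change with its 95% interval (edgeR) for the 23 ligands tested, Het against WT in blue and Het-NTD against WT-NTD in orange; filled points passed at an adjusted p below 0.05 and the triangle is a lower bound. Cxcl3 and Cxcl1 lie farthest to the right in both, and Ccl2, Cxcl14, Cxcl10 and Ccl12 are filled and left of 0 in both. Ccl3 is filled and left of 0 in Het against WT and is the triangle in Het-NTD against WT-NTD.

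Other gene lists were read beside these ligands, against the same shares of all genes (7.89% higher and 8.61% lower in Het against WT, 5.24% and 6.24% in Het-NTD against WT-NTD). Of 15 macrophage genes tested, 10 fell and none rose in Het against WT (median log2 change -2.39), and 14 fell and none rose in Het-NTD against WT-NTD (median -3.30). Among the 16, Cd163 alone was at 0 in a whole group, Het-NTD. Of 4 mesothelial genes, 3 fell in both contrasts, and 1 rose in Het-NTD against WT-NTD. Their sum was 31.3 to 40.0 CPM in WT and 11.1 to 12.1 CPM in Het, and 28.3 to 37.1 CPM in WT-NTD and 14.9 to 18.4 CPM in Het-NTD. The part of either in the ligand results was not tested. T and NK cell markers summed to at most 0.329 CPM in any library of experiment 2 and neutrophil markers to at most 1.04 CPM. Mast cell and basophil markers (5 genes) summed to 0.873 to 1.74 CPM in WT and 2.48 to 2.84 CPM in Het, and to 0.792 to 0.840 CPM in WT-NTD and 2.19 to 3.17 CPM in Het-NTD. The single gene of that list tested, Mcpt8, rose in both contrasts. Cpa3 was at 0 in all 4 groups, Cma1 only in Het and Het-NTD, and Mcpt4 only in Het-NTD. The part of this list in the ligand results was not tested. Among 25 tested genes of the NF-kB and cytokine response, 4 rose and 6 fell in Het against WT, and 4 rose and 2 fell in Het-NTD against WT-NTD. The adhesion molecule Icam1 fell from 20.1 ± 4.18 to 4.02 ± 0.58 CPM (log2 change -2.32, adjusted p = 3.81e-04), and Vcam1 from 162 ± 4.96 to 120 ± 9.85 CPM (adjusted p = 8.31e-04). Nfkbia, the NF-kB inhibitor, fell from 25.6 ± 3.28 to 14.8 ± 2.70 CPM (adjusted p = 0.00224), while Zc3h12a, a ribonuclease that degrades cytokine mRNA, rose from 9.35 ± 1.36 to 14.4 ± 0.42 CPM (adjusted p = 0.0035). Icam1, Vcam1 and Zc3h12a passed in the same directions in Het-NTD against WT-NTD. Of 28 interferon-stimulated genes tested, 3 fell in Het against WT (Ifih1, Mx2 and Ifit1) and 2 in Het-NTD against WT-NTD (Ifih1 and Ifit2). None rose, and the shares that fell were near those of all genes. By sign, 5 of the 28 lay above 0 in Het against WT (median log2 change -0.24) and 7 in Het-NTD against WT-NTD (median -0.21). Of all genes, 51.1% and 50.9% lay above 0.

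Cxcr2, Ccr2 and Cxcr4, receptors for some of the abundant ligands, were scarce in the fibroblasts. Of 18 chemokine receptors, 9 were tested in experiment 2. Cxcr2 had group means of 0.511 to 0.671 CPM over the 7 fibroblast groups, Ccr2 of 0 to 0.159 CPM and Cxcr4 of 0.313 to 0.689 CPM. Ackr3, an atypical receptor that scavenges Cxcl12, was the most abundant, at 8.42 to 21.7 CPM. Cx3cr1, the fractalkine receptor and a macrophage gene, fell from 9.85 ± 2.02 to 2.23 ± 1.83 CPM in Het (adjusted p = 0.0317) and from 6.77 ± 3.79 to 0.664 ± 0.251 CPM in Het-NTD against WT-NTD (adjusted p = 0.0106). Its ligand Cx3cl1 rose in both contrasts.

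NTD was followed by no ligand call on any of the 3 backgrounds in the main edgeR fits, and hardly any gene passed at all. Of 23 members, 20 lay below 0 in KO-NTD against KO, 17 in WT-NTD against WT and 14 in Het-NTD against Het. Their median log2 changes were -0.53, -0.27 and -0.18, where 48%, 50.5% and 50.5% of all genes lay above 0. In KO-NTD against KO, 0 of 23 members passed (background 0.00687%). None had an unadjusted p below 0.05 (6.68% of all genes) and none passed in DESeq2 (0.186% of all genes). No member was free of overlap there (5.74% of all genes higher, 5.42% lower). In Het-NTD against Het, 0 of 23 passed (background 0.014%, or 0.00699% in each direction). There 1 had an unadjusted p below 0.05 (6.26% of all genes) and DESeq2 called 1 (0.161% of all genes). That member was Ccl2, at 81.3 ± 3.65 CPM in Het and 66.5 ± 3.50 in Het-NTD (log2 change -0.29, DESeq2 adjusted p = 0.0435, edgeR adjusted p = 0.525). The 3 Het-NTD values of Ccl2 (63.1, 66.3 and 70.1 CPM) lay below the 3 Het values (84.4, 77.3 and 82.1 CPM), and 2 members were lower without overlap, the other being Cx3cl1 (8.15% of all genes lower, 8.16% higher). In WT-NTD against WT, 0 of 23 passed (background 0.014%). An unadjusted p below 0.05 was seen for 4 (7.37% of all genes), and DESeq2 called none (0.196% of all genes). There 4 members, Ccl3, Ccl4, Ccl9 and Cxcl16, were lower without overlap and none higher (4.85% and 4.48% of all genes), and Ccl2 stood at 98.6 ± 2.21 against 97.5 ± 9.02 CPM (adjusted p = 0.968). The difference between the NTD effects in Het and WT passed for 0 of 23 members (background 0%). It had 1 unadjusted p below 0.05 (4.97% of all genes) and no call in DESeq2 (0.0279% of all genes). For Ccl2 the difference was -0.31 ± 0.09 (adjusted p = 0.892).

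The other abundant members did not pass on any background. In Het-NTD against Het the log2 changes were 0.10 for Cxcl12, -0.02 for Ccl7, -0.21 for Cx3cl1, 0.11 for Cxcl5, -0.29 for Cxcl14 and -0.18 for Cxcl1 (adjusted p from 0.793 to 0.984). In WT-NTD against WT they were -0.20 for Cxcl12, 0.20 for Ccl7, -0.23 for Cx3cl1, -0.44 for Cxcl5, -0.47 for Cxcl14, -1.23 for Ccl9 and -0.58 for Cxcl16 (adjusted p from 0.654 to 0.77). Ccl9 measured 4.16, 7.37 and 7.93 CPM in WT and 3.19, 1.89 and 3.29 CPM in WT-NTD, without overlap. In KO-NTD against KO they were -0.16 for Cxcl12, -0.12 for Ccl7, -0.50 for Ccl2, 0.17 for Cx3cl1, -0.81 for Cxcl5, -0.69 for Cxcl14, -0.77 for Cxcl1, -0.70 for Ccl9 and -0.53 for Cxcl16 (adjusted p from 0.714 to 0.921). The 95% intervals for Cxcl5 (-1.95 to 0.33) and Cxcl14 (-2.22 to 0.84) in that contrast were wide. Single libraries moved these values by over 1.5 times. Without KO 1 the log2 change was 0.36 for Ccl7, -0.09 for Ccl2, -0.04 for Cxcl5 and -0.05 for Cxcl12. Without KO 3 it was -0.19 for Cxcl14 and -0.16 for Ccl9, and without KO 2 it was -0.17 for Cxcl16. Without KO-NTD 3 it was -1.61 for Cxcl1 and -1.23 for Cxcl16, and without KO-NTD 2 it was 0.04 for Cx3cl1.

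KO against WT in experiment 1 changed 0 of 23 members in edgeR, where 0.447% of 14551 genes passed (0.124% higher, 0.323% lower). Unadjusted p was below 0.05 for 4 members (12% of all genes), and DESeq2 called 1, Cx3cl1 (3.29% of all genes). CPM did not overlap for 3 members higher (Cxcl5, Cxcl2 and Ccl20) and 1 lower, Cx3cl1 (8.47% and 8.87% of all genes). Cx3cl1 measured 59.8, 51.0 and 57.4 CPM in WT and 38.6, 38.3 and 43.5 CPM in the libraries labelled KO, without overlap. Its log2 change was -0.48 ± 0.11 (edgeR adjusted p = 0.128, DESeq2 adjusted p = 0.00509), the opposite sign from Het against WT in experiment 2. The members lay above 0 in 19 of 23 cases with a median log2 change of 0.57, where 51.9% of all genes lay above 0.

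Behind that median the 3 KO libraries differed among themselves. KO 1 held the highest level of several inducible ligands. Cxcl5, a neutrophil attractant, measured 63.2, 58.9 and 95.1 CPM in WT and 380, 118 and 128 CPM in KO (log2 change 1.53 ± 0.50, adjusted p = 0.287), so all 3 KO values lay above WT and KO 1 far above the rest. Without KO 1 its log2 change was 0.76. Cxcl3 measured 0.540, 0.601 and 0.712 CPM in WT and 10.8, 0.554 and 0.803 CPM in KO. Ccl2 measured 68.6, 70.1 and 82.6 CPM in WT and 163, 89.7 and 76.6 CPM in KO, with a log2 change of 0.57 (adjusted p = 0.459) that was 0.17 without KO 1. Ccl7 measured 70.4, 62.4 and 88.6 CPM in WT and 167, 78.2 and 74.0 CPM in KO, with a log2 change of 0.53 (adjusted p = 0.547) that was 0.04 without KO 1. Ccl11 and Ccl8, which lie in the same cluster on chromosome 11, were also highest in KO 1, at 3.18 and 0.527 CPM. Cxcl14 went the other way in that library, at 16.2 CPM against 96.4 and 127 in the other KO libraries (WT 165, 101 and 164) (adjusted p = 0.666).

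KO 2 and KO 3 held more than KO 1 of another set of ligands. Ccl9 measured 2.62, 6.95 and 11.3 CPM in KO 1, 2 and 3, against 4.50, 2.14 and 3.07 CPM in WT (log2 change 1.11, adjusted p = 0.512). Cxcl16 measured 2.94, 7.99 and 5.78 CPM in KO, against 3.30, 1.90 and 3.17 CPM in WT (adjusted p = 0.49). Ccl12 measured 0, 1.08 and 0.500 CPM in KO, and Ccl3 and Ccl4 were at 0 in KO 1 and at 0.313 to 0.571 CPM in KO 2 and 3. These are the libraries with macrophage sums of 421 and 289 CPM, against 13.1 CPM in KO 1. The mesothelial genes divided these libraries as well (4.52 CPM in KO 1, 40.6 and 22.6 CPM in KO 2 and 3), and mast cell and basophil markers the other way (9.31 CPM in KO 1, 0.967 and 0.446 CPM in KO 2 and 3). Among the KO-NTD libraries, KO-NTD 3, with a macrophage sum of 304 CPM, held 7.32 CPM of Ccl9 and 6.87 of Cxcl16. KO-NTD 2, with 10.5 CPM, held 3.68 CPM of Cxcl3 and no count of Ccl3 or Ccl4. Cxcl5 (68.7, 127 and 163 CPM in KO-NTD 1, 2 and 3), Ccl2 (63.5, 75.9 and 93.6 CPM) and Ccl7 (83.7, 104 and 105 CPM) were highest in KO-NTD 3, unlike in KO, where they were highest in the library with the lowest macrophage sum. The part of RNA from any of these cell types in the differences was not tested. Cxcl12 (293 ± 38.2 against 302 ± 36.7 CPM) and Cxcl1 (8.14 ± 1.66 against 7.28 ± 3.26 CPM) had log2 changes of -0.04 and 0.16 in KO against WT (adjusted p = 0.912 and 0.936).

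**Figure D4:**
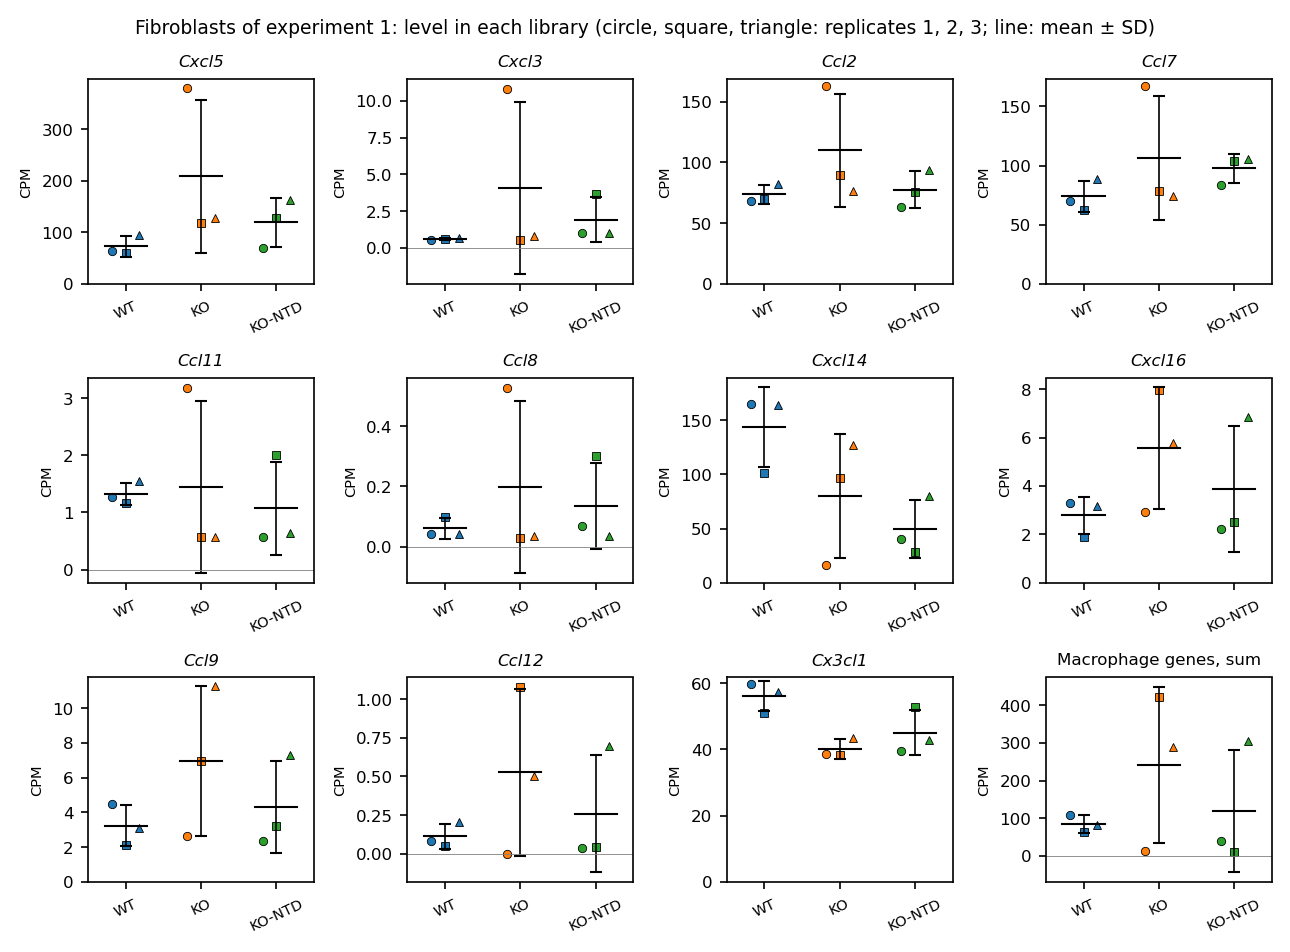
CPM of 11 ligands and of the summed macrophage genes in the 9 fibroblast libraries of experiment 1; symbols are replicates 1, 2 and 3, the line is the mean and the bar the SD. KO 1 (circle) is highest for Cxcl5, Cxcl3, Ccl2, Ccl7, Ccl11 and Ccl8, and is below KO 2 and KO 3 for Cxcl14, Cxcl16, Ccl9, Ccl12 and the macrophage genes.

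In lung, Het against WT changed 0 of 27 members in edgeR (background 0%). None had an unadjusted p below 0.05 (0.715% of all genes) and none passed in DESeq2 (0.00628% of all genes). CPM did not overlap for 1 member higher, Ccl12, and 1 lower, Cxcl5, both below 2 CPM (1.96% and 2.28% of all genes). Cxcl15 measured 955, 1093 and 1322 CPM in WT and 1225, 1360 and 1097 CPM in Het, which overlap (log2 change 0.13, 95% interval -0.26 to 0.51). Cxcl12 measured 259, 266 and 268 CPM in WT and 251, 259 and 295 CPM in Het. Ccl6, a ligand of Ccr1 known from macrophages and other myeloid cells, measured 96.2, 61.4 and 89.5 CPM in WT and 68.4, 70.3 and 124 CPM in Het, and it stayed at or below 0.303 CPM in every fibroblast library. Macrophage genes summed to 1704 to 2736 CPM in the lungs.

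The remaining members that reached 5 CPM in lung overlapped between the genotypes too. Cxcl16 was 61.4 ± 8.08 CPM in WT and 56.5 ± 8.57 in Het, Cxcl14 31.3 ± 2.40 and 35.4 ± 4.77, and Cx3cl1 27.6 ± 3.24 and 30.6 ± 3.65. Cxcl17, a mucosal ligand, was 16.9 ± 6.38 and 13.5 ± 5.06 CPM, and Ccl9 9.19 ± 0.87 and 8.29 ± 1.39. Cxcl13, the B cell attractant, measured 3.59, 2.93 and 4.38 CPM in WT and 5.53, 4.34 and 5.23 CPM in Het (log2 change 0.47 ± 0.23, SE). Per length of exon, with all isoforms joined, Cxcl15 stood at 528 ± 87.2 CPM per kb in WT, far above Ccl6 at 45.9 ± 10.3 and Cxcl12 at 32.4 ± 0.57. Ccl19, a Ccr7 ligand, and Ccl22, a Ccr4 ligand, were counted in every lung and hardly in fibroblasts: Ccl19 was 2.65 ± 0.38 CPM and Ccl22 2.35 ± 0.46 CPM in WT lung. Among the receptors, Cxcr4 stood at 87.7 ± 24.1 CPM and Ackr3 at 66.0 ± 13.8 CPM in WT lung, while Cxcr6, at 2.27 ± 1.51 CPM, was near its fibroblast group means (1.56 to 2.21 CPM). Every adjusted p of the 27 members was 1, and the widest interval was that of Cxcl9 (log2 -4.99 to 0.46), which measured 2.76 CPM in WT 1 and 0.24 and 0.423 CPM in the other WT lungs.

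**Figure D5:**
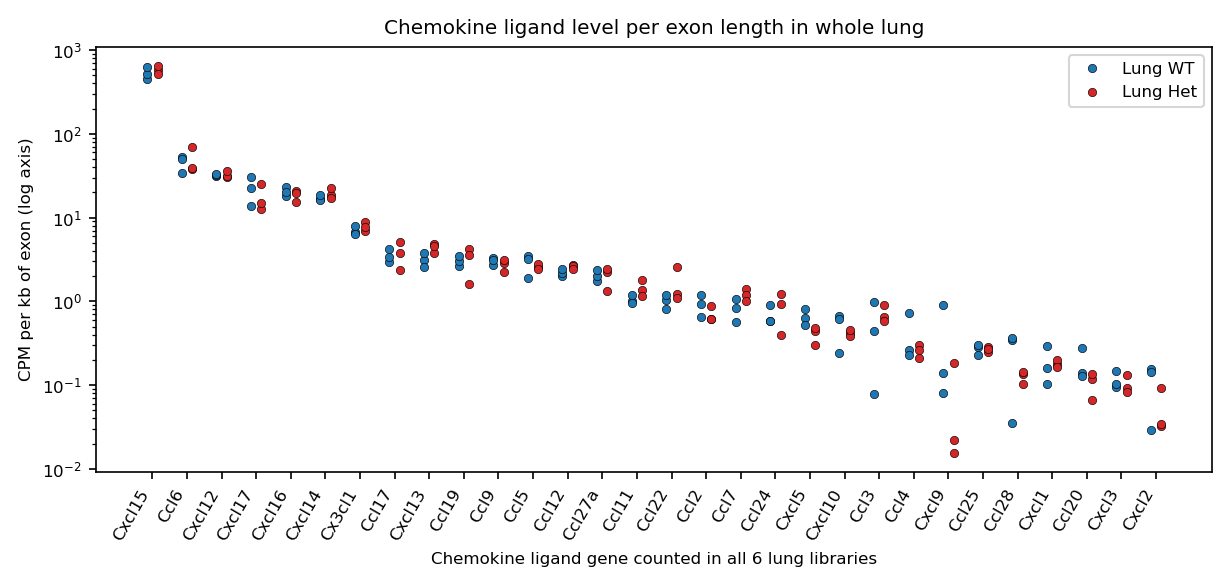
CPM per kb of exon on a log axis for the 30 ligands counted in all 6 lung libraries, ordered by the WT mean; each point is 1 library, WT in blue and Het in red. Cxcl15, at 528 CPM per kb in WT, lies far above the rest, and the colours overlap for most members.

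The Het effect was compared between lung and fibroblasts of experiment 2 in a joint fit of 12 libraries. The difference passed for 2 of 30 members (background 1.12%), Cxcl14 and Cxcl15, both higher (background 0.813% higher, 0.312% lower). DESeq2 called 5, adding Ccl12, Cxcl16 and Cxcl10 (4.49% of all genes). For Cxcl14 the Het effect was 1.98 ± 0.34 higher in lung than in fibroblasts on the log2 scale (edgeR adjusted p = 0.0223). For Cxcl15 it was 4.06 ± 0.85 higher (adjusted p = 0.0488), on fibroblast levels of 0.199 to 1.36 CPM in WT and at most 0.10005 CPM in Het. The nearest of the rest, Ccl12 (3.49 ± 0.78, adjusted p = 0.0592) and Cxcl16 (0.99 ± 0.24, adjusted p = 0.0783), did not pass. Among the macrophage genes, 1 of 16 passed in the same direction, with a median difference of 2.29. Of 4 mesothelial genes, 2 passed in that direction (median 2.49), and of 6 blood endothelial genes, 1 passed in the other (median -1.2). The part of these cell types in the ligand results was not tested.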

How the data were processed

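Bulk RNA was measured in 27 libraries of 9 groups. The values used are the raw counts that the authors deposited, with genes named by symbol. The submitters' processing notes name the build mm10 and, as tools, featureCounts 1.4.6, Subread, Bowtie2 2.2.6 and TopHat2 2.0.14. The annotation and strand setting of the counting are not given in the sources used here. Libraries came from about 200 ng of RNA, per the labels' protocols. Among counts of 1 to 30, 61.5 to 67.3% were even, so reads may not be independent and counting intervals may understate the error. Replicates differed beyond sampling noise (chi-square over its degrees of freedom at least 5.88).

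The members and lists were chosen with earlier results of these data known. One fit was made per experiment and 1 for lung, using edgeR 4.0.16 under R 4.3.3 (filterByExpr by group, TMM, robust quasi-likelihood F test, two-sided, Benjamini-Hochberg over all genes tested, threshold 0.05), tested on simulated data first. DESeq2 1.42.0, RLE factors, no filter, the compared groups alone, a replicate block and leaving out each library were alternatives. Full values are given for members called in a comparison or with a mean of 5 CPM in a group (at most the 12 lowest p), and for up to 4 called genes of a list; in the 2 comparisons of effects, only called members and a few others are named. Cxcl3, Ccl8, Ccl11 and Ccl12 in experiment 1 were named after their values were seen. Exon lengths (all isoforms joined) and coordinates are from GENCODE M21 on GRCm38, promoters from RefSeq. A 3 against 3 exact permutation test cannot go below p = 0.1, so none was used.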

Additional observations from a re-analysis of the deposited data

Results flagged for a closer look

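The effect of the Het label differed between tissues for 2 members by the interaction test in edgeR. Cxcl14 had a difference of 1.98 on the log2 scale (adjusted p = 0.0223): it was 110 ± 43.0 CPM in WT and 31.9 ± 5.61 CPM in Het fibroblasts, and 31.3 ± 2.40 and 35.4 ± 4.77 CPM in lung (SD, n = 3). Cxcl15 had a difference of 4.06 (adjusted p = 0.0488): it was 0.801 ± 0.582 and 0.0491 ± 0.05 CPM in fibroblasts and at least 955 CPM in every lung library. Lung and fibroblast levels here come from separate fits. Leaving out 1 library at a time ended the Cxcl15 call in 10 of 12 fits and the Cxcl14 call in 5 of 12.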

How the results depend on the processing

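RLE factors and dropping the filter kept each count of called members within 1.5 times the one reported. DESeq2 called 1 member in KO against WT and 1 in Het-NTD against Het, where edgeR called 0, and 5 in the comparison of tissues, where edgeR called 2. Fitting the compared groups alone called 1 in Het-NTD against Het, 9 in place of 12 in Het against WT and 6 in place of 9 in Het-NTD against WT-NTD. Deviations of same-numbered libraries correlated at -0.483 to 0.608 in experiment 1, -0.209 to 0.446 in experiment 2 and -0.338 to 0.12 in lung. Differently numbered libraries were not compared, so these values cannot tell whether replicate numbers pair the libraries. The replicate block gave 1 call in the comparison of tissues, ended the call of Cxcl10 in Het-NTD against WT-NTD (adjusted p = 0.0537), called 13 in Het against WT and moved no other count by over 1.5 times. Leaving out 1 library at a time gave 7 to 11 calls in Het against WT (7 without Het 2), 3 to 8 in Het-NTD against WT-NTD and 0 to 4 in the comparison of tissues (4 without Lung Het 3). The same fits turned the sign of some changes that had not passed. In KO against WT, Cxcl12 ranged from -0.16 to 0.0286 and Cxcl1 from -0.0661 to 0.58; in KO-NTD against KO, Ccl7 from -0.33 to 0.36. In Het-NTD against Het, Cxcl5 ranged from -0.16 to 0.37 and Ccl7 from -0.0525 to 0.0114; in WT-NTD against WT, Ccl2 from -0.0563 to 0.0698. In lung, Cxcl16 ranged from -0.21 to 0.00103, Ccl6 from -0.25 to 0.24 and Cxcl12 from -0.0496 to 0.0663. The causes were not tested. Ligands below about 1 CPM rest on few counts, and their intervals span several log2 units.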

Other observations

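The ratio of Ccl7 to Ccl2, adjacent Ccr2 ligands, shifted between groups, a pattern chosen after seeing the values. The count of Ccl7 divided by that of Ccl2, which needs no scaling between libraries, was 0.825, 0.775 and 0.772 in WT 1, 2 and 3 of experiment 2. It was 0.887, 0.867 and 0.937 in WT-NTD, 1.16, 1.35 and 1.30 in Het and 1.59, 1.53 and 1.48 in Het-NTD. No 2 of these 4 groups overlapped. In experiment 1 it was 1.03, 0.891 and 1.07 in WT, 1.02, 0.872 and 0.967 in KO and 1.32, 1.37 and 1.13 in KO-NTD. The ratio was thus higher with NTD than without, with no overlap, on each of the 3 backgrounds. Of 14175 genes tested in both experiments, 16 (0.113%, Ccl7 included) had a ratio to Ccl2 that did so on all 3. On single backgrounds the share was 4.04% in KO-NTD against KO, 64.7% in Het-NTD against Het, where Ccl2 itself was lower, and 2.06% in WT-NTD against WT. Between genotypes such a ratio was common: 45.2% of genes had one in Het against WT and 78.8% in Het-NTD against WT-NTD. No test was made, since 3 against 3 libraries cannot give an exact p below 0.1.

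The symbol rule leaves out Pf4 and Ppbp, a pair of platelet CXC ligands. Pf4, which macrophages also make, fell in Het against WT (2.31 ± 0.40 CPM in WT, 0.495 ± 0.488 in Het, edgeR adjusted p = 0.0337) and in Het-NTD against WT-NTD from 1.28 ± 0.53 to 0.135 ± 0.081 CPM (adjusted p = 0.0189). Ppbp, which lies in the ELR cluster, rose in Het-NTD against WT-NTD from 1.64 ± 0.50 to 4.36 ± 0.89 CPM (adjusted p = 0.0198). In experiment 1 Ppbp measured 20.2 CPM in KO 1 and 1.45 to 6.77 CPM in the other libraries.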
